A study of Rattus norvegicus with 80 samples.

Results

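A set of 39 cell cycle genes was followed in the lungs of male Sprague-Dawley (Crl:CD[SD]) rats that had received a fibrous material by intratracheal instillation. They were chosen by gene symbol from a list of 40, of which 39 were found in the array's annotation and 1 (Cenpe) was not. They are 39 of 15925 genes measured, and comprise 25 genes of mitosis and 14 of S phase, read by 56 probes that were averaged per gene. The materials were MWCNT (multi-walled carbon nanotubes) and 3 cellulose nanofibril preparations called CNF1, CNF2 and CNF3, each instilled once. Exposed lungs carried a dose label of 0.5 mg/kg, of 1.0 mg/kg or of 2.0 mg/kg and were taken on day 1, 3, 7, 30 or 90, and each material had its own vehicle array for every day, from rats given distilled water with preservatives. That made 60 exposed and 20 vehicle arrays, 1 for each of 80 groups, so values within a group carry no SD. The rats were 7 weeks old when purchased, and 4 rats were used for each group and day. Whether 1 rat or a pool was hybridised to each array is not given in the labels, and the treatment text names a dose of 1 mg/kg where the array labels give 3 doses.

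The values are log2 values that the depositors had normalized and centred on each probe, so 0 is near a probe's middle value over the 80 arrays, and a log2 difference of 1 is a 2-fold difference. Such values hold no signal level. The presence of lung markers and the order of levels between genes were therefore not read from them. In whole lung, fewer cells of a type and less RNA per cell cannot be told apart. Before any result, the 27 spike-in and negative control spots were set against the vehicles over all 5 days with the same test as the genes, limma. Here and below, a gene or spot passed, or was called higher or lower, at a Benjamini-Hochberg adjusted p under 0.05, taken over all genes for genes. No share of all genes was counted at an unadjusted p, so member counts at that cut have no background beside them. At 2.0 mg/kg 0 of the 27 spots passed for any material (limma, with 0 to 7 at an unadjusted p under 0.05). At 0.5 mg/kg 7 to 25 of them passed, and at 1.0 mg/kg 7 to 26. The arrays of both lower doses thus stood apart in spots that hold no rat sequence, and the results below lead with 2.0 mg/kg. Counts without the lower-dose arrays are given for the effects of 2.0 mg/kg. No share of all genes was counted in those or other alternative fits, so member counts there have no background beside them.

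Cells that leave the resting state copy their DNA in S phase and divide in mitosis. Cyclin E, encoded by Ccne1 and Ccne2, and the transcription factor E2f1 drive entry into S phase. Cdc6 and Cdt1 then load the MCM helicase (Mcm2 to Mcm7) onto origins, Rrm2 and Tyms make DNA building blocks, and Pcna is the clamp of the replication machinery. Cyclins A2, B1 and B2 with the kinase Cdk1 bring cells into mitosis under the transcription factor Foxm1. The spindle motors Kif11, Kif20a and Kif23, the spindle proteins Tpx2, Prc1 and Nusap1, the kinases Plk1, Aurka and Aurkb, the checkpoint kinases Bub1, Bub1b and Ttk, and Cdc20 and Ube2c of the anaphase-promoting complex then carry it out. Few cells divide in the lung of an adult animal at rest.

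Many mitotic genes are switched off in resting cells through a promoter element called CHR, often beside CCAAT boxes bound by NF-Y, whereas S-phase genes often carry E2F elements. RefSeq promoters on the rat build GRCr8, from 250 bases before to 50 bases after the start of each gene, were available for 19 mitotic and 9 S-phase members. On both strands, CHR was searched as TTTGAA, the CCAAT box as CCAAT, and E2F elements as TTGGCGC or TTCCCGC or TTCGCGC or TTGCCGC. CHR letters were present in 13 of 19 mitotic promoters (68.4%) and 1 of 9 S-phase promoters (11.1%), against 18.3% of 33469 rat promoters. CCAAT was present in 78.9% of the mitotic and 55.6% of the S-phase promoters, against 37.5% of all. E2F letters were present in 4 of 19 mitotic promoters (21.1%) and 7 of 9 S-phase promoters (77.8%), against 9.52% of all. A match describes the letters and does not show binding, and the absence of one says only that these letters are not in the window. The promoters below belong to the mitotic and S-phase members with the largest mean response to 2.0 mg/kg among those matched. They are printed 5′ to 3′ along the gene, with matches in capitals. A match read on the other strand appears as its reverse complement, for instance TTCAAA for CHR or ATTGG for CCAAT. Birc5 lies at chr10:103571896-103572195 on the + strand, with CHR at -8 and CCAAT at -213 counted from the start site. Ttk lies at chr8:93634389-93634688 on the + strand, with CHR at +5 and CCAAT at -67 and -30. Melk, at chr5:63335901-63336200 on the + strand, held none of the searched letters. Mcm5 lies at chr19:13488563-13488862 on the + strand, with CCAAT at -137, -82 and -54 and E2F letters at -212, -209 and -7, the first 2 overlapping on opposite strands. Mcm3 lies at chr9:30733697-30733996 on the - strand, with CCAAT at -142, -97 and -57 and E2F letters at -6 and +15. Ccne1, at chr1:99927860-99928159 on the - strand, held none of them.
Birc5: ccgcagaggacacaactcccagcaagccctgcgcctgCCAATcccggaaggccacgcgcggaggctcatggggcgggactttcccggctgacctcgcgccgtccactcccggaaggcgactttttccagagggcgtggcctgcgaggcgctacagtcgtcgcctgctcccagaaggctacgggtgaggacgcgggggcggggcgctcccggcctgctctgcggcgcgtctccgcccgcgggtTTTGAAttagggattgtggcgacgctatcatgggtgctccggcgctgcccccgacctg
Ttk: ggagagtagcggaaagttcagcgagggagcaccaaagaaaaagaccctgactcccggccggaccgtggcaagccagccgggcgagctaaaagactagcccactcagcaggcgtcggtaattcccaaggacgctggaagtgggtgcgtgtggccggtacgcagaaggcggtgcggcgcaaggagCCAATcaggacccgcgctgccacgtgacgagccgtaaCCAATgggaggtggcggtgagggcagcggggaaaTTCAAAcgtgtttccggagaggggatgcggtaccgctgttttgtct
Melk: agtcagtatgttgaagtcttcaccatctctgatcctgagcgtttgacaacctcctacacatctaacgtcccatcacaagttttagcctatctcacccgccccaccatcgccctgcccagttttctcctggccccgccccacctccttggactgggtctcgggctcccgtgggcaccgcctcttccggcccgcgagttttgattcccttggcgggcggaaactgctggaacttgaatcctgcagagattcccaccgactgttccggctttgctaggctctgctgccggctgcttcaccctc
Mcm5: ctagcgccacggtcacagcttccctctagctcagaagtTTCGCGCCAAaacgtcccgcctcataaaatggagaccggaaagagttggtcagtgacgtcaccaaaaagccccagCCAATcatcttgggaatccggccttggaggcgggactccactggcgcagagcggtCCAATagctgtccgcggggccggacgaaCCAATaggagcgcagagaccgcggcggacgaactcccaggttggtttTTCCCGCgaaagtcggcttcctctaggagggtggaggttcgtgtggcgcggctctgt
Mcm3: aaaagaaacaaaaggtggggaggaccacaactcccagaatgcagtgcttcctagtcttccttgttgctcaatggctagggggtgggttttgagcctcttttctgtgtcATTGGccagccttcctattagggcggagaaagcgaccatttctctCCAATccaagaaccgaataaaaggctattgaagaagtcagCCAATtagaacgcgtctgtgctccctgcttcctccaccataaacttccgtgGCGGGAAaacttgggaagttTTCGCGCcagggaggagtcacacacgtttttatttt
Ccne1: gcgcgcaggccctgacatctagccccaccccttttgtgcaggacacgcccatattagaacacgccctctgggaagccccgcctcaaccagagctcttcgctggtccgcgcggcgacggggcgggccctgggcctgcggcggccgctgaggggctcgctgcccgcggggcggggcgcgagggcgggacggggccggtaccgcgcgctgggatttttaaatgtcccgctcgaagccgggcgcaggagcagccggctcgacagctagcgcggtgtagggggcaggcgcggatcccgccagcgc

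Genes of mitosis rose in the first week after every material at 2.0 mg/kg. After MWCNT the median difference of the 25 mitotic genes from their own vehicle array was 1.26 on day 1 and 1.25 on day 3, on the log2 scale. On day 3 after the nanofibrils it was 2.15 in CNF1 lungs, 1.94 in CNF2 lungs and 1.51 in CNF3 lungs. The median of all genes in those 4 arrays of day 3 lay between -0.12 and 0.12. On day 3, at least 2-fold differences were shown by 18 of the 25 mitotic genes after MWCNT, 23 after CNF1, 22 after CNF2 and 21 after CNF3, where 4.19%, 9.09%, 8.45% and 3.48% of all genes were that far above vehicle.

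**Figure D1:**
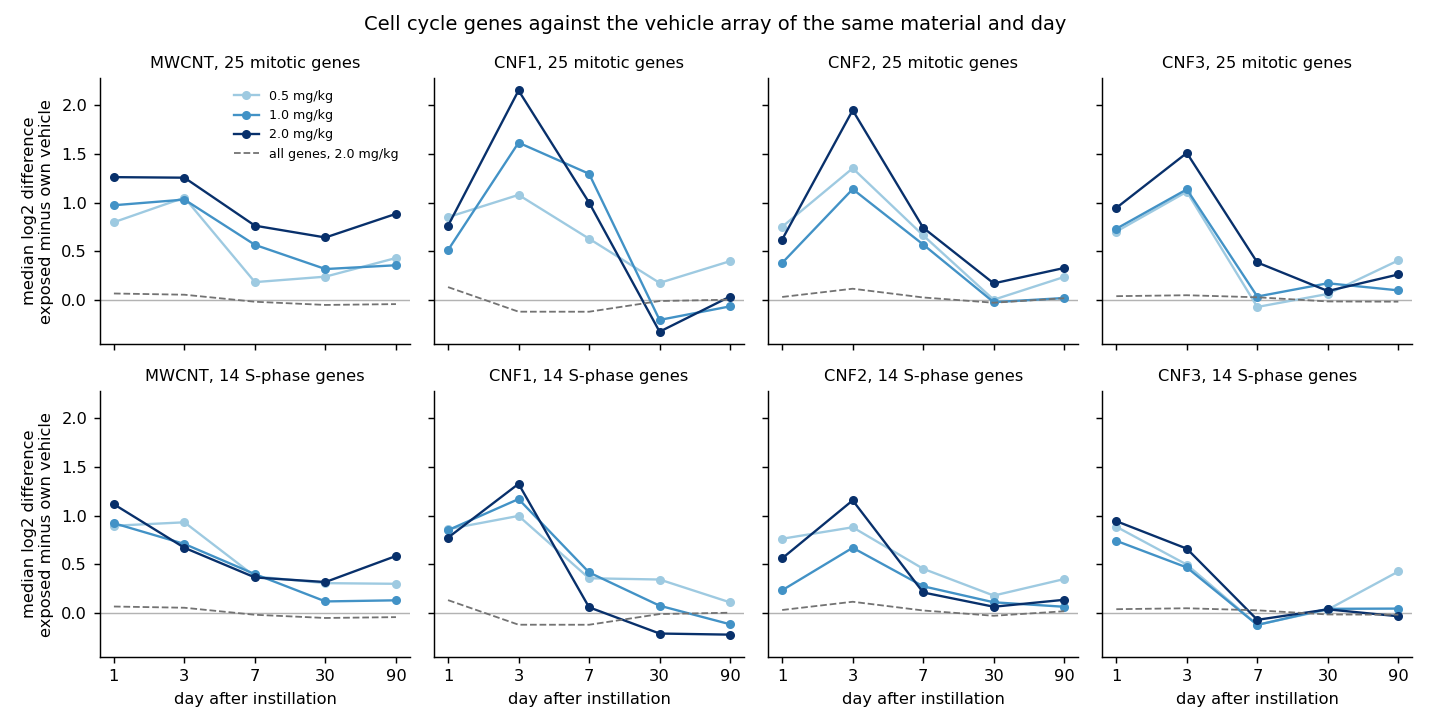
Median log2 difference of the 25 mitotic genes (upper row) and 14 S-phase genes (lower row) from the vehicle array of the same material and day, against the day after instillation, with a line for each dose and a dashed line for the median of all genes at 2.0 mg/kg. The nanofibril curves for mitotic genes are highest on day 3, at 2.15, 1.94 and 1.51 for CNF1, CNF2 and CNF3 at 2.0 mg/kg, and the MWCNT curve at 2.0 mg/kg stands at 0.88 on day 90.

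Averaged over days 1, 3 and 7 with limma, which takes the 3 days of a material as its repeats, 22 of 25 mitotic genes were higher after 2.0 mg/kg MWCNT, where 8.06% of all genes were. They numbered 22 after CNF1 (24.2% of all genes), 21 after CNF2 (18.9%) and 22 after CNF3 (10.2%). Of the 14 S-phase genes 10 were higher after MWCNT, 12 after CNF1, 12 after CNF2 and 6 after CNF3. The median mitotic difference was 1.12 for MWCNT, 1.34 for CNF1, 1.08 for CNF2 and 0.91 for CNF3. Cyclin A2 (Ccna2) averaged 1.34 ± 0.24 (SE) above vehicle after MWCNT (adjusted p = 0.000376) and 1.80 ± 0.24 after CNF1 (adjusted p = 1.59e-07). Left without day 1, the 32 mitotic and S-phase genes that passed for MWCNT became 15 and the 28 for CNF3 became 9. Left without day 3, the 33 that passed for CNF2 became 20 and the 28 for CNF3 became 18. Without the lower-dose arrays, 17 passed for MWCNT, 27 for CNF1 (34 with them), 26 for CNF2 and 10 for CNF3. For CNF2, 7 of the 27 control spots were also higher, and their part was not tested.

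For a test on single days, CNF1, CNF2 and CNF3 were used as 3 repeats, although they are different materials, in a fit added after the data had been seen. On day 3 the 3 nanofibril arrays at 2.0 mg/kg lay above the vehicle arrays in 23 of 25 mitotic and all 14 S-phase genes, where 23.7% of all genes were called higher. Aurkb and Kif23 were the 2 that did not pass. On day 1, 18 mitotic and 12 S-phase genes were higher (16.8% of all genes), or 17 of the 39 members without CNF3. On that day 9 of 27 control spots were higher too, against 1 on day 3 and 0 on day 7, and their part was not tested. On day 7, 18 mitotic genes and 3 S-phase genes, Rrm2, Cdc6 and Ccne1, were higher (12.9% of all genes), or 5 members without CNF2. Without the lower-dose arrays the members that passed numbered 30 on day 1, 37 on day 3 and 20 on day 7.

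Ccna2, which acts from S phase into mitosis, stood at 2.36, 2.05 and 1.26 in the CNF1, CNF2 and CNF3 arrays at 2.0 mg/kg on day 3, against -0.50, -0.19 and -0.46 in their vehicle arrays. The groups did not overlap, and the CNF3 array was the lowest of the exposed ones. The difference was 2.27 ± 0.19 (SE), with an adjusted p of 1.85e-10. Birc5, the survivin gene, whose product sits with Aurora B on chromosomes, stood at 2.67, 2.17 and 1.24 against -0.23, -0.04 and -0.51, a difference of 2.29 ± 0.21. Again CNF1 was highest and CNF3 lowest among exposed lungs. Melk, a kinase found mainly in dividing cells, stood at 2.32, 2.03 and 1.62 against -0.12, -0.09 and -0.45. Ttk, the checkpoint kinase also called Mps1, stood at 2.33, 2.12 and 1.12 against -0.28, -0.15 and -0.58. Kif11, the motor that separates the spindle poles, stood at 1.97, 1.77 and 1.07 against -0.17, -0.62 and -0.32. In these 5 genes, named for their large mean effect, every exposed nanofibril array lay above every vehicle array, as was so for 21.8% of all genes. Mki67, the gene of the proliferation antigen Ki-67, stood at 2.07, 1.80 and 0.88 against -0.08, -0.18 and -0.42, a difference of 1.81 ± 0.17 (adjusted p = 1.65e-09). Foxm1, the transcription factor of many of these genes, stood at 1.64, 1.42 and 0.78 against -0.11, -0.08 and -0.20. Its difference was 1.41 ± 0.15, below that of most mitotic genes.

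Apart from Aurkb and Kif23, the remaining mitotic genes also rose on day 3. Of the kinases, Plk1, which acts at many steps of mitosis, rose by 2.16 ± 0.18, Cdk1 by 1.71 ± 0.17 and Aurka, which matures the spindle poles, by 0.96 ± 0.14. Of the spindle genes, Tpx2, the activator of Aurora A, rose by 2.17 ± 0.22, Kif20a by 1.83 ± 0.20, Prc1 by 1.74 ± 0.22 and Nusap1 by 1.55 ± 0.20. The checkpoint kinases Bub1 and Bub1b rose by 1.57 ± 0.13 and 1.51 ± 0.19, and the kinetochore gene Cenpf by 2.04 ± 0.24. Ube2c, which tags proteins for destruction at the end of mitosis, rose by 2.05 ± 0.20 and Cdc20 by 1.31 ± 0.13. Entry, spindle, checkpoint and exit genes were thus among those that rose.

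**Figure D2:**
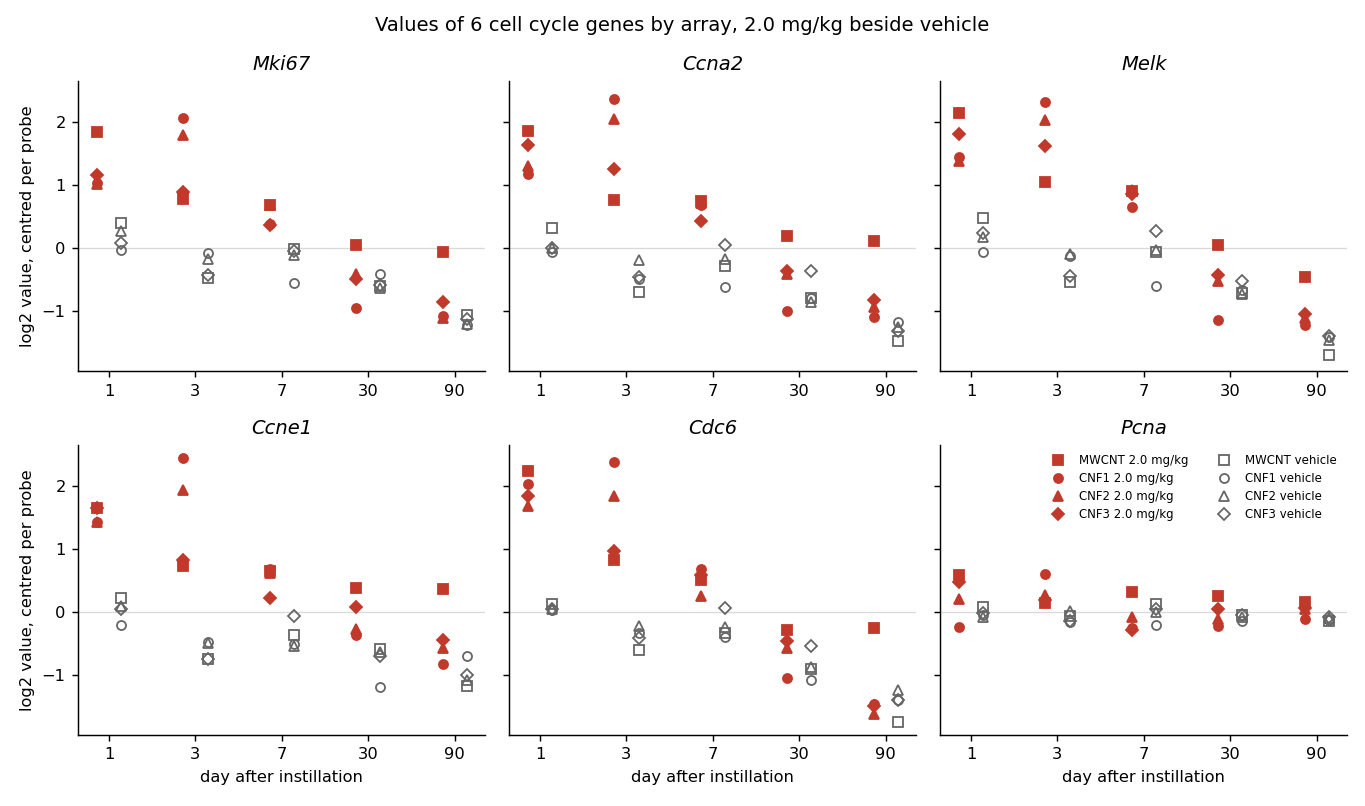
Log2 values, centred per probe, of Mki67, Ccna2, Melk, Ccne1, Cdc6 and Pcna by day, with filled red marks for 2.0 mg/kg arrays and open grey marks for vehicle arrays, and a shape for each material. On day 3 every exposed array of the first 5 genes lies above every vehicle array, and on day 90 the MWCNT squares (Ccna2 at 0.11, Cdc6 at -0.26) lie above all other arrays of their genes.

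Part of the mitotic genes were further above vehicle on day 3 than on day 1. After 2.0 mg/kg nanofibril the day 3 effect exceeded the day 1 effect in 11 mitotic and 0 S-phase genes (1.41% of all genes were called higher, and 6 S-phase genes had an unadjusted p under 0.05 with limma). The median of that difference was 0.97 for mitotic genes and 0.35 for S-phase genes. The 11 were Ccnb1, Kif20a, Plk1, Bub1, Cdc20, Nusap1, Ube2c, Tpx2, Aurka, Cdk1 and Top2a, the last encoding the enzyme that untangles chromosomes. Cyclin B1 (Ccnb1) differed most, at 2.05 ± 0.20 on day 3 and 0.56 ± 0.20 on day 1, a gain of 1.49 ± 0.28 (adjusted p = 0.00501). Without CNF1 or without CNF2 the count was 0, as it was after quantile normalization and when the 0.5 and 1.0 mg/kg arrays were left out. Whether mitotic and S-phase genes differed from each other in this gain was not tested. Read array by array, 24 of 25 mitotic genes were furthest above vehicle on day 3 after each of CNF1, CNF2 and CNF3. From day 1 to day 3 the mitotic median at 2.0 mg/kg went from 0.68 to 1.89 in CNF1 lungs and from 0.60 to 1.80 in CNF2 lungs. Their vehicles went from -0.08 to -0.15 and from 0.08 to -0.10. In CNF3 lungs it went from 0.98 to 1.10, while the CNF3 vehicle fell from 0.10 to -0.35. After MWCNT 17 mitotic genes were furthest above vehicle on day 1, 7 on day 3 and 1 on day 90. Each of these readings rests on 1 exposed and 1 vehicle array per day. The share of all genes furthest above vehicle on a given day was not counted, so these counts have no background beside them.

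Among the S-phase genes, Ccne1, Rrm2 and Cdc6 had the largest day 3 differences, from 2.05 ± 0.20 for Cdc6 to 2.31 ± 0.20 for Ccne1. Cdc6, the loader of the helicase, stood at 2.02, 1.68 and 1.84 in the CNF1, CNF2 and CNF3 arrays at 2.0 mg/kg on day 1, against 0.03, 0.05 and 0.04 in vehicle arrays. On day 3 it stood at 2.37, 1.83 and 0.97 against -0.33, -0.22 and -0.41. CNF3 lungs thus showed their highest Cdc6 value on day 1 and CNF1 lungs on day 3. Its difference was 2.05 ± 0.20 on day 3 and 1.81 ± 0.20 on day 1, and no change between those days passed the test (0.24 ± 0.28, adjusted p = 0.726). Ccne1 (cyclin E1) stood at 1.43, 1.42 and 1.65 on day 1 against -0.21, 0.10 and 0.04, and at 2.44, 1.93 and 0.83 on day 3 against -0.49, -0.50 and -0.75. Rrm2, a ribonucleotide reductase subunit, stood at 2.50, 2.35 and 0.95 on day 3 against -0.40, -0.29 and -0.10. In these 3 genes, also named for a large mean effect, exposed arrays lay above all vehicle arrays on both days, as 23.8% of all genes did on day 1 and 21.8% on day 3.

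Mcm5, a helicase subunit, stood at 1.26, 1.47 and 0.79 on day 3 against -0.51, -0.10 and -0.34, a difference of 1.49 ± 0.23, while on day 1 the CNF1 array (0.47) fell within the range of the vehicle arrays (0.09 to 0.59). The other helicase genes rose by 0.59 ± 0.11 (Mcm7) to 1.18 ± 0.15 (Mcm3). E2f1, the activator of S-phase genes, stood at 0.69, 0.69 and 0.54 against -0.41, -0.33 and -0.04, a difference of 0.90 ± 0.21. Cdt1, the partner of Cdc6, rose by 1.18 ± 0.14, Ccne2 by 1.11 ± 0.16 and Tyms, thymidylate synthase, by 0.81 ± 0.11. Over the 14 S-phase genes the median difference at 2.0 mg/kg on day 3 was 0.67 after MWCNT, 1.32 after CNF1, 1.16 after CNF2 and 0.66 after CNF3. On day 7 these medians were 0.37, 0.06, 0.21 and -0.07. The median mitotic difference on that day was still 0.76, 1.00, 0.74 and 0.39 after MWCNT, CNF1, CNF2 and CNF3. The mitotic medians themselves were 0.72, 0.46, 0.67 and 0.43 in those 2.0 mg/kg arrays, against -0.02, -0.43, -0.09 and 0.08 in their vehicles. The CNF1 difference was thus the largest beside the lowest vehicle, and the CNF1 level was below those of MWCNT and CNF2. All 14 S-phase genes were furthest above vehicle on day 3 after CNF1, and 13 of 14 after CNF2. After CNF3 and after MWCNT, 13 of 14 were furthest above vehicle on day 1. The share of all genes furthest above vehicle on those days was not counted.

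The first-week values after MWCNT began high and declined. Mki67 stood at 1.84, 0.78 and 0.68 in MWCNT lungs at 2.0 mg/kg on days 1, 3 and 7, against 0.41, -0.48 and -0.02 in MWCNT vehicle lungs. Cdc6 stood at 2.24, 0.82 and 0.50 against 0.12, -0.60 and -0.33. Birc5 stood at 1.93, 0.91 and 0.92 against 0.46, -0.34 and 0.03. Each exposed array lay above its vehicle, and in each gene the vehicle array of day 1 was the highest of the 3 vehicles.

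**Figure D3:**
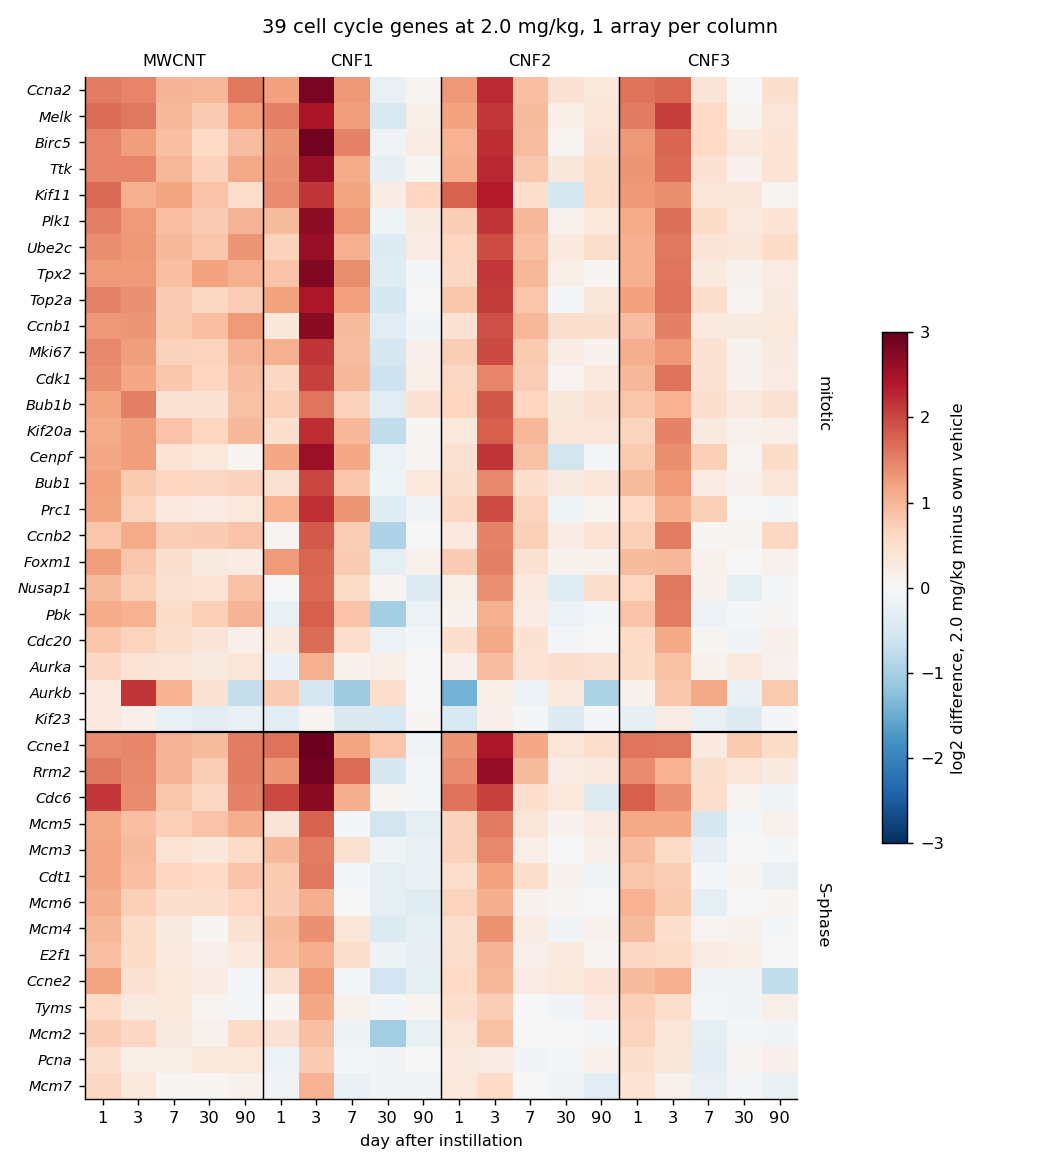
Log2 difference of 39 cell cycle genes (rows, mitotic above S-phase) at 2.0 mg/kg from the vehicle array of the same material and day, 1 array per column, red where higher and blue where lower. The darkest columns are day 3 of CNF1 and CNF2, S-phase rows are paler than mitotic rows on day 7, and Aurkb and Kif23 do not follow the others.

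Several members did not follow the rest. Kif23, a motor of the dividing midzone, read 0.53, 0.34 and 0.07 in nanofibril arrays at 2.0 mg/kg on day 3 against 0.46, 0.18 and -0.18 in vehicle arrays (difference 0.16 ± 0.15, adjusted p = 0.413). Aurkb (Aurora B) scattered without order: the MWCNT array of day 3 read 2.01 against -0.13 in its vehicle, and the CNF2 array of day 1 read -0.20 against 1.23. On day 3 both genes overlapped the vehicles in the nanofibril arrays, and Kif23 also did after MWCNT. The MWCNT array of Aurkb lay above all 4 vehicle arrays of that day, as 29.6% of all genes did. Pcna and Mcm7 rose on day 3 after the nanofibrils by 0.45 ± 0.11 and 0.59 ± 0.11 (adjusted p = 0.00166 and 8.72e-05), below the other S-phase genes. Over the 80 arrays these 4 genes had the lowest correlations with the mean of all members, at 0.455 for Aurkb, 0.553 for Mcm7, 0.561 for Pcna and 0.618 for Kif23, whereas Mki67 stood at 0.99. Each member is part of that mean, and arrays of 1 day share handling and dose labels, so these are descriptions. For some members, among them Bub1b, E2f1, Ccne1, Top2a and Kif11, the average holds probes that differed. On day 3 after nanofibrils at 2.0 mg/kg the 2 probes of Ccne1 rose by 1.81 and 2.81. Those of Top2a rose by 2.38 and 1.71, and those of Kif11 by 1.68 and 2.26. A single probe of the 3 for Bub1b rose by 0.47 on day 3 where the others rose by 1.93 and 2.11. E2f1 read -1.26 in the CNF2 array at 1.0 mg/kg on day 1, and 1 of its 2 probes ranged over 4.06 across the arrays.

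On day 3 the median mitotic difference from vehicle was 1.08, 1.61 and 2.15 from the lowest to the highest dose after CNF1, 1.35, 1.14 and 1.94 after CNF2, and 1.11, 1.14 and 1.51 after CNF3. It was highest at 2.0 mg/kg for each nanofibril, but the 1.0 mg/kg value after CNF2 lay below that of 0.5 mg/kg. The response, in log2 per mg/kg over the vehicle array and the 3 doses of a day, was above 0 on day 3 in 38 of 39 members after CNF1 and in 39 after CNF2 and after CNF3. It passed for 20 mitotic and 11 S-phase genes after CNF1 (15.4% of all genes), for 14 mitotic genes and the S-phase genes Tyms and Ccne1 after CNF2 (3.44%), and for Cdc20 and Melk after CNF3 (0.0942%). At an unadjusted p under 0.05 with limma the numbers were 35, 32 and 23, and the share of all genes at that cut was not counted. Birc5 gained 1.47 ± 0.18 per mg/kg after CNF1 (adjusted p = 1.32e-07), and its 4 arrays read -0.23, 0.72, 2.23 and 2.67 from vehicle to 2.0 mg/kg. After CNF2 Birc5 read -0.04, 1.36, 1.22 and 2.17, and after CNF3 -0.51, 0.76, 0.86 and 1.24. Each step of dose was upward for CNF1 and CNF3, and the middle step was not for CNF2. Melk gained 0.94 ± 0.21 per mg/kg after CNF2 and 0.98 ± 0.21 after CNF3. Elsewhere, Birc5 and Foxm1 passed on day 1 after CNF1 (2.66%) and Birc5 and Plk1 on day 7 after CNF1 (3.33%). For MWCNT 0 members passed on any day with limma (0.144%, 0, 0.157%, 0.245% and 2.43% of all genes in either direction on days 1, 3, 7, 30 and 90), while 24 had an unadjusted p under 0.05 on day 1 and 15 on day 3. The remaining nanofibril sets also gave 0, with 0.126% and 0.0126% of all genes for CNF1 on days 30 and 90, and 0.484%, 0.421%, 0.333% and 0.0628% for CNF2 and 1.12%, 0.0314%, 0.892% and 0.138% for CNF3 on days 1, 7, 30 and 90. In all, 53 responses passed over the 20 sets of material and day, but 0 did after quantile normalization, 85 with arrays centred on their median, and 128 with 3 factors taken from the control spots. Whether calls over all genes moved alike in these alternatives was not counted.

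Most members were already higher at the lowest dose in the first days. On day 3, 23 mitotic and 12 S-phase genes were higher at 0.5 mg/kg than in vehicle over the 3 nanofibrils (30.9% of all genes), and on day 1, 20 and 12 (27.4%). In the same comparisons 12 of 27 control spots passed on day 3 and 6 on day 1. The median mitotic difference at 0.5 mg/kg on day 3 was 1.08 in CNF1, 1.35 in CNF2, 1.11 in CNF3 and 1.05 in MWCNT lungs. Between 2.0 and 0.5 mg/kg, 18 mitotic and 6 S-phase genes differed on day 3, all higher at the higher dose (10.1% of all genes), with a median of 0.60 and 0.37 while that of all genes was -0.12. Plk1 exceeded its low-dose value by 0.97 ± 0.18 and Bub1 by 0.76 ± 0.13, whereas Kif11 (0.25 ± 0.24) and Mcm4 (-0.06 ± 0.19) did not pass. On day 1 the same comparison called Melk alone higher (5.94%) and Kif23 alone lower (17.3%). Control spots differed between these doses too: 5 of 27 were lower at 2.0 mg/kg on day 3, and 13 were higher and 3 lower on day 1. Their part in the dose differences was not tested. On day 90, 2 mitotic and 5 S-phase genes were lower at 2.0 than at 0.5 mg/kg, a share below the 23% of all genes that were, and 24 of 27 control spots differed.

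**Figure D4:**
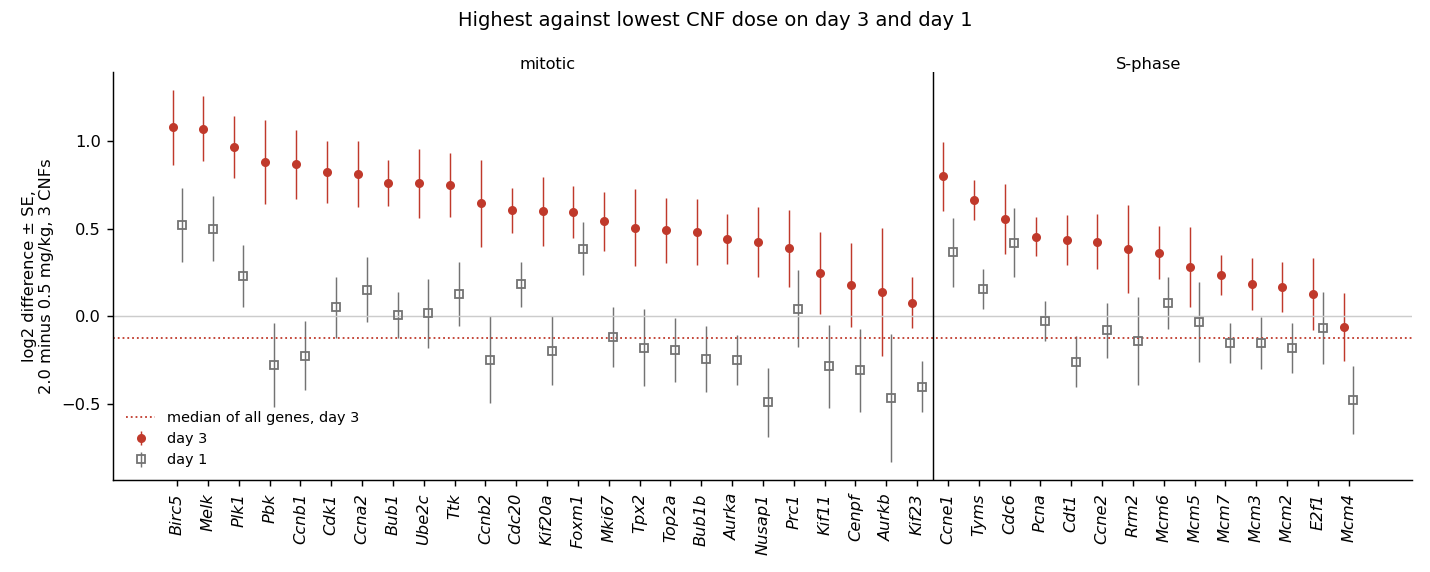
Log2 difference between 2.0 and 0.5 mg/kg, averaged over the 3 nanofibrils, for each cell cycle gene on day 3 (filled red) and day 1 (open grey), with bars for the SE and a dotted line for the median of all genes on day 3 (-0.12). On day 3 the points of Plk1 (0.97) and Bub1 (0.76) lie well above 0. Several members, among them Kif11, Aurkb, Kif23, Cenpf, E2f1 and Mcm4, have bars that reach or nearly reach 0. Day 1 points lie below those of day 3 for each gene named here.

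In MWCNT lungs mitotic genes still stood above vehicle on days 30 and 90. Averaged over these days at 2.0 mg/kg, 9 of 25 mitotic genes (Mki67, Ccna2, Ccnb1, Cdk1, Plk1, Ttk, Tpx2, Ube2c and Melk) and 5 of 14 S-phase genes (Mcm5, Rrm2, Cdc6, Cdt1 and Ccne1) were higher than vehicle, where 7.06% of all genes were. The median difference was 0.76 for mitotic and 0.41 for S-phase genes. Ccna2 stood at 1.86, 0.77, 0.75, 0.19 and 0.11 in MWCNT lungs at 2.0 mg/kg on days 1, 3, 7, 30 and 90, against 0.32, -0.69, -0.28, -0.80 and -1.47 in MWCNT vehicle lungs. The exposed array stood above its vehicle on every day. Its late effect was 1.29 ± 0.30 (adjusted p = 0.0035). Cdc6 read -0.29 and -0.26 on days 30 and 90 after MWCNT against -0.90 and -1.74 in vehicle, a late effect of 1.05 ± 0.31 (adjusted p = 0.0249). Mki67 read 0.05 and -0.06 against -0.61 and -1.07. On day 90 the MWCNT array lay above all 4 vehicle arrays of that day in 23 mitotic and 11 S-phase genes (30.5% of all genes did). The 14 late calls rest on both days: without day 30, or without day 90, or without the 0.5 and 1.0 mg/kg arrays, 0 passed.

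Nanofibril lungs were nearer their vehicles by then than in the first week. Over days 30 and 90 at 2.0 mg/kg, 0 members passed for CNF1, CNF2 or CNF3, where 1.32%, 2.56% and 3.92% of all genes were called in either direction. With limma 1 member each had an unadjusted p under 0.05. The median mitotic difference was -0.13 for CNF1, 0.19 for CNF2 and 0.21 for CNF3. With the 3 nanofibrils together, Ccne1 was the 1 member called higher on day 30 (0.65 ± 0.20, adjusted p = 0.0406, 4.63% of all genes), and it did not pass when any nanofibril was left out. On day 90, 0 passed (1.81% of all genes in either direction), with 3 mitotic genes at an unadjusted p under 0.05. The median mitotic difference on that day was 0.04 after CNF1, 0.33 after CNF2 and 0.26 after CNF3. All 3 exposed arrays lay above all 3 vehicle arrays in 9 mitotic and 1 S-phase genes on day 90 (16.8% of all genes did). On day 30 this was so for 0 mitotic and 1 S-phase genes (12.6%).

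The fall of the effect with time was tested directly. After CNF1 the late effect was lower than the early one for 19 mitotic and 11 S-phase genes (5.29% of all genes), with medians of -1.52 and -1.03. Rrm2 changed most among the genes followed by array, by -2.24 ± 0.36 (adjusted p = 0.000735). After CNF2 Kif11 and Rrm2 were lower late (0.892%), with differences of -1.53 ± 0.42 and -1.40 ± 0.36. After CNF3 0 passed (0.0816% in either direction), with 13 mitotic and 2 S-phase genes lower at an unadjusted p under 0.05 with limma. After MWCNT 0 passed (0.0565%), with 2 members at an unadjusted p under 0.05, and the change was below 0 in all 25 mitotic and 12 of 14 S-phase genes, with medians of -0.34 and -0.22 against -0.05 for all genes. The CNF1 count became 14 without day 3, 0 without day 30 or day 90, 9 after quantile normalization and 3 without the lower-dose arrays, and the CNF2 count became 0 without day 1, 3, 30 or 90 and 14 without day 7.

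**Figure D5:**
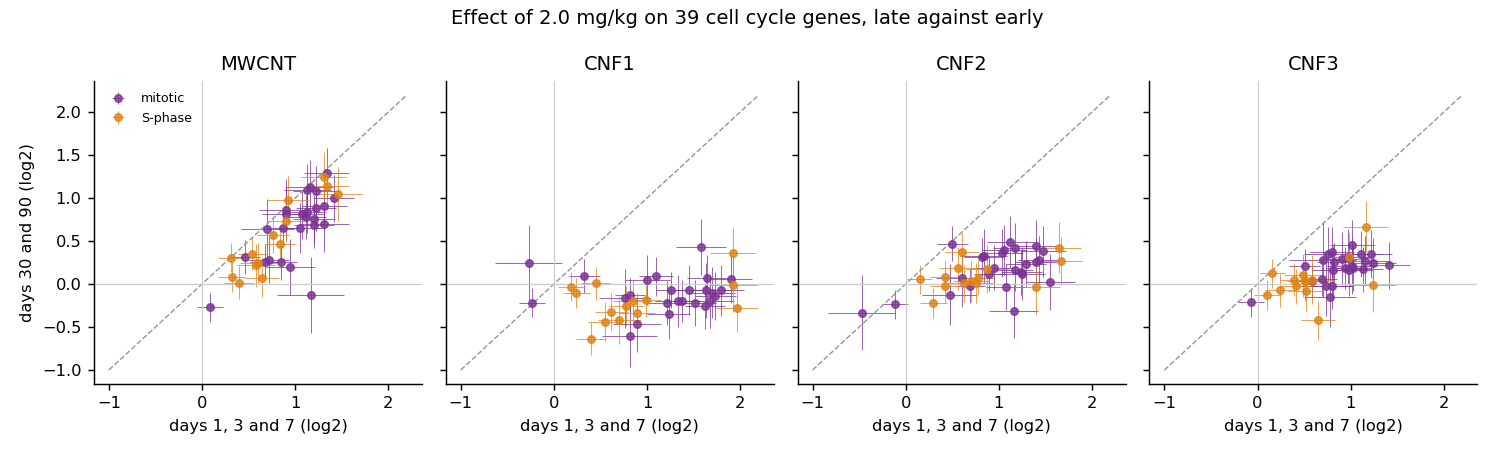
Effect of 2.0 mg/kg against vehicle on days 30 and 90 (vertical) and on days 1, 3 and 7 (horizontal), in log2, for 39 cell cycle genes in 4 panels by material, with bars for the SE, purple for mitotic and orange for S-phase genes, and a dashed line of equal effects. In the MWCNT panel 37 of 39 genes lie below the dashed line, by a median of -0.33, with Ccna2 near it at 1.29 late and 1.34 early. In the nanofibril panels most genes lie nearer a late effect of 0, with median mitotic effects of -0.13, 0.19 and 0.21 for CNF1, CNF2 and CNF3.

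Differences between materials were tested on these effects. MWCNT minus the mean of the nanofibrils gave 0 members in the first week (0.433% of all genes in either direction, 1 member at an unadjusted p under 0.05). Over days 30 and 90 it also gave 0 (0.527%). At an unadjusted p under 0.05 with limma, 13 mitotic and 8 S-phase genes were higher after MWCNT. The share of all genes at that unadjusted cut was not counted. The median late difference was 0.67 for mitotic and 0.55 for S-phase genes, against -0.03 and 0.07 early. In the same late comparison the 27 control spots differed by a median of -0.71, and 0 passed. On day 90 their median difference between MWCNT and the nanofibrils was -0.84. The part of the spots in these differences was not tested. With a common control of all 4 vehicles, 6 members passed late, and the share of all genes there was not counted. On day 90 alone Cdc6 was the 1 member to pass, at 1.66 ± 0.40 (adjusted p = 0.049, 0.414% of all genes called higher). MWCNT had 1 exposed and 1 vehicle array on that day, so the spread comes from the nanofibril arrays and MWCNT is assumed to vary like them. It stood at -0.26 after MWCNT and -1.47, -1.62 and -1.49 after CNF1, CNF2 and CNF3, against -1.74, -1.40, -1.24 and -1.40 in their vehicles. Ccna2 on that day stood at 0.11 after MWCNT and -1.10, -0.93 and -0.83 after CNF1, CNF2 and CNF3, against -1.47, -1.17, -1.25 and -1.31, and its difference between materials did not pass (1.29 ± 0.38, adjusted p = 0.177). On day 3, 0 members passed between MWCNT and the nanofibrils (0.00628% of all genes), and 10 were lower after MWCNT at an unadjusted p under 0.05 with limma.

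Averaged over all 5 days, 2.0 mg/kg raised 21 mitotic and 9 S-phase genes after MWCNT (12.7% of all genes), 19 and 5 after CNF1 (21.8%), 20 and 7 after CNF2 (15.6%) and 15 and 3 after CNF3 (9.75%). At 1.0 mg/kg the counts were 17 and 6 after MWCNT (8.49%), 19 and 9 after CNF1 (20.6%), 7 and 5 after CNF2 (27.6%) and 5 and 1 after CNF3 (18.7%). At 0.5 mg/kg they were 13 and 10 after MWCNT (30.4%), 19 and 9 after CNF1 (36.1%), 15 and 8 after CNF2 (37.7%) and 5 and 4 after CNF3 (23.8%). Some of these counts were near or below the share of all genes. At 1.0 mg/kg, 28% of the mitotic genes passed after CNF2 and 20% after CNF3, and 7.14% of the S-phase genes after CNF3. At 0.5 mg/kg after CNF3, 20% of the mitotic and 28.6% of the S-phase genes passed. Kif23 was lower after CNF1 at 1.0 mg/kg (-0.29, where 16.2% of all genes were lower) and Mcm7 after CNF2 (-0.28, 12.3%). The doses of a material share its vehicle arrays. Mki67 was 1.01 ± 0.21 above vehicle after MWCNT, 0.75 ± 0.21 after CNF1, 0.77 ± 0.21 after CNF2 and 0.64 ± 0.21 after CNF3. Between materials 0 members passed in any of 6 pairs, with 0 to 2 members at an unadjusted p under 0.05 with limma. The share of all genes that differed was 0.484% for MWCNT minus CNF3, 0.107% for MWCNT minus CNF2, 1.63% for MWCNT minus CNF1, 0.151% for CNF3 minus CNF2, 0 for CNF3 minus CNF1 and 0.207% for CNF2 minus CNF1. For Mki67 the largest of those differences, MWCNT minus CNF3, was 0.38 ± 0.30. The count of 24 for CNF1 became 12 without day 3, that of 27 for CNF2 became 17 without day 1 and 11 without day 3, and that of 18 for CNF3 became 0, 8 and 11 without days 1, 3 and 7. Quantile normalization left 13 for CNF1 and 15 for CNF2. Without the lower-dose arrays the counts were 19 for MWCNT, 16 for CNF1, 8 for CNF2 and 0 for CNF3.

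The vehicle lungs themselves changed. Relative to the mean of days 1, 3 and 7, day 90 vehicles were lower in 23 of 25 mitotic and 10 of 14 S-phase genes (10.8% of all genes), with medians of -1.03 and -0.39. Mki67 averaged 0.18 ± 0.19, -0.29 ± 0.19, -0.18 ± 0.25, -0.56 ± 0.10 and -1.16 ± 0.07 in vehicles of days 1, 3, 7, 30 and 90 (SD, n = 4 arrays, 1 for each material). All 4 vehicles of day 90 lay below all 12 of the first week in 20 mitotic and 3 S-phase genes (3.44% of all genes did). The difference was -1.43 ± 0.13 for Melk and -1.26 ± 0.09 for Cdc6 (adjusted p = 7.01e-06 and 8.52e-07), while Pcna (-0.07 ± 0.04) and Mcm7 (0.08 ± 0.06) did not pass. Day 30 was lower than the first week in 10 mitotic genes and Cdc6 (1.08%), and day 90 lower than day 30 in 14 mitotic genes and Cdc6 (2.16%). Days 3 and 7 differed from day 1 in 0 members with limma (0.1% and 0.345% of all genes), though 22 and 13 were lower at an unadjusted p under 0.05. Day after instillation and age of the rat are the same axis in these vehicles and cannot be told apart.

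Other genes of the same pathway were counted from lists that did not include the members. Of 34 further mitotic genes measured, 33 were higher on day 3 after nanofibrils at 2.0 mg/kg and 0 lower (median 1.59, against 0.00 for all genes). Kif22, a chromosome motor, rose by 2.56 ± 0.22 and Cenpa, the centromere histone, by 2.21 ± 0.22, while Cdc25b did not pass. Of 38 further replication genes, 34 were higher and 0 lower (median 1.25), among them Chaf1b, a chromatin assembly factor, at 2.04 ± 0.21 and Tk1, thymidine kinase, at 2.02 ± 0.19. Late after MWCNT, 13 of the 34 mitotic and 5 of the 38 replication genes were higher and 0 lower, where 7.06% of all genes were higher and 3.5% lower. In day 90 vehicles 31 of the 34 and 22 of the 38 were lower than in the first week, where 10.8% of all genes were. Of 21 G1 cyclins and inhibitors, 7 were higher and 5 lower on day 3 after nanofibrils, where 23.7% of all genes were higher and 18.2% lower. Among the inhibitors of cyclin kinases, Cdkn1a (p21) rose by 0.99 ± 0.19 and Cdkn2a by 1.73 ± 0.25, whereas Cdkn1c (p57) fell by 0.90 and Cdkn1b (p27) fell by 0.57. Cyclin D1 (Ccnd1, -0.06 ± 0.10) and cyclin D2 (Ccnd2, 0.13 ± 0.12) did not pass. Over 5 days at 2.0 mg/kg Cdkn1a differed by 0.06 ± 0.12 after MWCNT and 0.22 ± 0.12 after CNF2, which did not pass, and was higher after CNF1 (0.74 ± 0.12) and CNF3 (0.77 ± 0.12). Tested between materials, Cdkn1a was lower after MWCNT than after CNF1 (-0.68 ± 0.17, adjusted p = 0.0315) and CNF3 (-0.71 ± 0.17, adjusted p = 0.0422), and the difference from CNF2 did not pass (-0.16 ± 0.17). Late after MWCNT Cdkn2a was the 1 gene of the 21 to pass, at 1.90 ± 0.36 (adjusted p = 0.000424).

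Markers of other cell types were counted in the same arrays, and their part in the cell cycle differences was not tested. The shares of all genes called higher and lower were 23.7% and 18.2% on day 3 after nanofibrils, 7.06% and 3.5% late after MWCNT, and 11.8% and 10.8% in day 90 vehicles, so the counts of several lists are near those shares. On day 3 after nanofibrils 4 of 9 macrophage markers were higher and 0 lower (Cd68 by 1.87 ± 0.24), and of 7 neutrophil markers 1 was higher and 2 lower. All 6 alveolar type 1 markers were lower (median -0.72), 5 of 8 endothelial markers were lower and 0 higher, and of 8 alveolar type 2 markers 3 were higher and 1 lower. Of 8 T cell markers 0 passed, of 5 B cell markers 4 were lower, of 7 fibroblast markers 3 were higher and 2 lower, and of 5 erythroid markers 1 was higher and 3 lower. Late after MWCNT 4 of 7 neutrophil markers were higher (Cd177 by 4.28 ± 0.46) and 3 of 9 macrophage markers (Marco by 2.31 ± 0.54), and 3 of 8 endothelial markers were lower. In day 90 vehicles 5 of 7 fibroblast, 4 of 5 erythroid and 4 of 7 neutrophil markers were lower than in the first week, and 4 of 6 alveolar type 1 and 4 of 8 endothelial markers were higher. The values are centred, so a summed level of a list and markers at 0 could not be given. The 27 control spots differed by a median of -0.02 on day 3 after nanofibrils (range -0.59 to 1.09), where 1 passed and 8 had an unadjusted p under 0.05 with limma. Late after MWCNT their median was -0.49 (range -0.55 to 0.01), where 0 passed and 0 had an unadjusted p under 0.05. In day 90 vehicles it was -0.25 (range -0.85 to 0.68), where 1 passed. Their part in these results was not tested.

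Outside the members and lists, the genes whose values ran most like the members' mean over the 80 arrays were Kif20b (r = 0.989), Spag5 (0.987), Bard1 (0.982) and Ska1 (0.979). Their mean differences at 2.0 mg/kg on day 3 after nanofibrils were 1.98, 2.00, 2.01 and 2.04. On day 90 Ska1 stood 1.68 above vehicle after MWCNT and 0.34 after nanofibrils, and Spag5 0.82 and 0.17. The arrays share days and doses with the members, so the correlations describe likeness of pattern over these 80 arrays. These genes were picked by that likeness, so differences like those of the members follow from the choice.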

How the data were processed

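RNA from whole perfused right lung was measured on 80 one-colour Agilent rat arrays, for which the submitters' processing notes name Agilent Feature Extraction 12.0.3.1. The deposited log2 values had been normalized and centred on each probe by the authors. The base of the logarithm and the method are not given in the sources used here, and base 2 was assumed. Signal, detection, slide and scan date were not used here, so the number of arrays limits precision.

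Of 41103 probes per array, 91 control spots were set apart and 20932 rat probes carried 1 symbol, brought to current names through RefSeq. Probes of a gene were averaged, giving 15925 genes. Tests used limma 3.58.1 in R 4.3.3 (lmFit, eBayes) over all genes, with Benjamini-Hochberg adjustment at 0.05; "passed", "higher" and "lower" mean that. Figures and counts used Python 3.11.15. The dose fit left 48 residual degrees of freedom (median SE 0.117), the early and late fit 36 (0.142), the dose response 40 (0.156), the single-day fit 30 (0.151) and the vehicle fit, with material as a block, 12 (0.075). All were tested on simulated data with known 2-fold changes. Each simulation took its noise from the dose fit over 5 days, where change over days counts as scatter. Few genes were changed in it, whereas many were called in the real data. The shares found hold for that setting and may differ from those of the other fits. The share found was 86% over 5 days and 55% for late minus early, both for CNF1. It was 61% for MWCNT minus nanofibrils late and 53% for the day 3 dose response after CNF1. For day 3 minus day 1 it was 65%, and for day 90 vehicles 82%. A count of 0 therefore does not show that no such change was there. With 1 array per group, days or materials serve as repeats, and p-values measure the scatter between these arrays. The members and lists were chosen with earlier results of these data known. Genes followed by array were the 5 mitotic and 4 S-phase members with the largest mean effect of 2.0 mg/kg over materials, the 2 of each class with the smallest, and Mki67, Foxm1, E2f1 and Ccne1. The 4 genes of each other list with the smallest p for MWCNT could be named, and further examples were chosen after their values were seen. Alternatives covered quantile normalization, centring of arrays, control-spot factors, a fold minimum, another adjustment, subsets of arrays, a common control, dose as a rank, and leaving out each day or material.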

Additional observations from a re-analysis of the deposited data

Results flagged for a closer look

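After CNF1 the effect of 2.0 mg/kg differed between periods in 30 members, all lower on days 30 and 90 than on days 1, 3 and 7, and after CNF2 in 2 members, Kif11 and Rrm2. On day 90 the effect of 2.0 mg/kg differed between MWCNT and the 3 nanofibrils in 1 member, Cdc6. MWCNT had 1 exposed and 1 vehicle array there, so that difference takes its spread from the nanofibril arrays alone. After the nanofibrils the effect differed between day 3 and day 1 in 11 members, all mitotic and all higher on day 3. Among the 4 vehicle arrays of day 30, the CNF3 array lay apart from the others: its median over the mitotic genes was -0.43 (-0.4283), against -0.5565 for CNF1, -0.5699 for CNF2 and -0.5724 for MWCNT. Chance alone marks about 1 such set in 20, and 10 sets of vehicles were looked at. The cause of these differences was not tested.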

How the results depend on the processing

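With 1 array per group, a depth per array is not known, and every p rests on taking days or materials as repeats. Exposed arrays were set against the vehicle array of their own material and day as a block in every fit but that of the vehicles, which had material as a block. No paired analysis by replicate number was possible because each group held 1 array. Over all alternatives 8775 member values were recomputed; of 3740 for members that had passed, 2824 still passed, 916 did not and 0 changed sign. Causes were not tested unless fewer arrays or a fold minimum were the alternative itself. The counts of members that passed moved as follows. No share of all genes was counted beside them, so whether all genes moved alike is not known. Quantile normalization gave 13 for CNF1 and 15 for CNF2 over 5 days, 9 and 0 for late minus early after CNF1 and CNF2, 1 for MWCNT minus nanofibrils late, 0 for day 3 minus day 1 and 0 dose responses. Centring arrays on their median gave 1 for late minus early after CNF2, 0 for nanofibrils on day 30 and 85 dose responses. The 3 control-spot factors gave 0 for late minus early after CNF2, 1 for CNF2 late and 128 dose responses, and dose as a rank gave 88. A fold of at least 2 left 13 for MWCNT, 7 for CNF1, 4 for CNF2 and 0 for CNF3 over 5 days, and 14 for the vehicles of day 90. Benjamini-Yekutieli adjustment left 14 for CNF2 and 1 for CNF3 over 5 days, and 11 and 0 for late minus early after CNF1 and CNF2. With 2.0 mg/kg and vehicle arrays alone, the counts over 5 days were 19, 8 and 0 for MWCNT, CNF2 and CNF3. They were 17 and 10 for MWCNT and CNF3 early, and 0 for MWCNT late. Late minus early gave 3 and 0 after CNF1 and CNF2, and day 3 minus day 1 gave 0. On day 30 after nanofibrils Ccne1 did not pass in that subset, and 1 different member passed as lower. A common control of the 4 vehicles gave 33 for CNF3 over 5 days, and 1 early and 6 late for MWCNT minus nanofibrils. Each material fitted alone gave 12 for CNF1 over 5 days, and 0 and 0 for late minus early after CNF1 and CNF2. Leaving out 1 day or 1 nanofibril gave 12 to 28 for CNF1, 11 to 31 for CNF2 and 0 to 18 for CNF3 over 5 days; 20 to 34 for CNF2, 9 to 34 for CNF3 and 15 to 31 for MWCNT early; 0 for MWCNT late; 0 to 31, 0 to 14 and 0 to 3 for late minus early after CNF1, CNF2 and CNF3; 17 to 32 on day 1, 5 to 20 on day 7 and 0 on day 30 after nanofibrils; and 0 to 10 for day 3 minus day 1. The count on day 3 after nanofibrils was 36 to 37 in every such run.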
